A study of Mus musculus with 9 samples.

Results

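Interferon-stimulated genes are switched on when type I, II or III interferon binds its receptor and the JAK kinases activate transcription factors, which bind the interferon-stimulated response element (ISRE) in front of many of these genes. Many of the proteins act directly on viruses: they block entry or release, cut viral RNA, use up nucleotides or mark proteins for removal. Here 44 such effector genes that lie outside the large IFIT, OAS, GBP and ISG15 families were followed in mouse cardiomyocytes, the muscle cells that make the heart beat. The genes were chosen by name, from viperin (Rsad2) and the Mx GTPases to the ADP-ribosylating PARP proteins, and all 44 were among the 55487 gene identifiers of the count table.

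RNA was sequenced from 9 libraries of isolated cardiomyocytes in 3 groups of 3; the series' title concerns Firre, the RNA-binding protein PTBP1, the Akt kinase pathway and heart muscle proliferation. No agent is named for the blank control, the negative control carried an AAV9 control vector (the labels write AAV9-VC), and the third group carried AAV9 for overexpression of the long noncoding RNA Firre. AAV9, a serotype of adeno-associated virus, is widely used to carry genes into the heart; the labels give no mouse strain, age, vector dose, promoter or time. The labels call the samples biological replicates without naming animals or cultures, so p-values rest on sample-to-sample spread only, and that spread may be technical.

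Counts in genes totalled between 15591542 and 22697016 per library. Firre itself, the check on the labels, had 62.9, 69.7 and 62.6 CPM in its own group, 32.5, 34.4 and 32.7 CPM with the control vector and 34.03, 37.2 and 30.2 CPM in the blank, with no Firre library as low as a control. Cardiomyocyte identity was plain in every library: 12 contractile and calcium-handling marker genes summed to 34777 to 37736 CPM (read counts scaled to a common library size with TMM factors) in the 6 controls and to 53256 to 56318 CPM with Firre. Other cells were present too. Summed fibroblast markers (10 genes) went from 9935 to 10378 CPM over the controls to 4573 to 5115 CPM with Firre, endothelial markers (10 genes) from 772 to 868 CPM to 285.7 to 296.5 CPM, and macrophage markers (17 genes) from 104 to 149 CPM to 15.3 to 18.3 CPM, with the complement gene C1qa at 0 in all Firre libraries. Lymphocyte and plasmacytoid dendritic cell markers (7 genes) were near 0 throughout, at most 0.447 CPM in sum. In bulk RNA, fewer cells of a type and less RNA per cell cannot be told apart, and the part that these shifts in cell markers play in the values below was not tested.

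Promoter windows were read to show what the effector genes share beside their name. For 35 of the 44 genes RefSeq promoters were at hand (build GRCm38.p6, 250 bases before to 50 after each annotated start; 47 windows, since 10 genes have more than 1 start). The ISRE core searched was GAAA, any 2 bases, then GAAA again, on both strands. It was found in 16 of the 35 genes (45.7%), against 1079 of all 27025 genes in the same table (3.99%). Counted by window the shares were 42.6% and 3.44%. The interferon-gamma activated site (GAS), searched as TTCNNNGAA, which reads alike on both strands, was found in 5 of the 35 genes (14.3%) against 9.55% of all genes. By window the GAS shares were 10.6% and 8.3%. In 3 of those genes (Bst2, Ifitm3 and Parp11) the GAS match overlapped an ISRE match. The windows held 27 ISRE matches at 24 distinct positions, since windows of Apol9b and of Slfn8 overlap; 17 positions lay before the start site and 7 behind it. A match describes letters only and does not show that a factor binds there. The absence of an exact match does not show that no ISRE is present.

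Windows of 6 genes are printed because their transcripts went different ways although each holds the ISRE core. Rsad2 (chr12:26456403-26456702, minus strand) and Ddx60 (chr8:61927837-61928136, plus strand) were among the strongest risers. Slfn5 (chr11:82951852-82952151, plus strand) and Slfn9 (chr11:82991781-82992080, minus strand) are neighbours on chromosome 11, and Ifitm3 (chr7:141010695-141010994, minus strand) and Ifitm2 (chr7:140955912-140956211, minus strand) lie near each other on chromosome 7. Each is written 5′ to 3′ on the strand of its gene, with the matches to the ISRE core in capitals; TTTC, 2 bases and TTTC is the same core read on the other strand.
Rsad2: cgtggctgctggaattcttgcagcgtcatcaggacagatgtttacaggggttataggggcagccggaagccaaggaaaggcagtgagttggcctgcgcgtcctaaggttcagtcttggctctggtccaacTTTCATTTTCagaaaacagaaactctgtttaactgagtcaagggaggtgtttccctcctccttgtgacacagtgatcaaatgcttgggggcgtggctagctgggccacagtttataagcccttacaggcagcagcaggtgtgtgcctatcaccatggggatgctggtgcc
Ddx60: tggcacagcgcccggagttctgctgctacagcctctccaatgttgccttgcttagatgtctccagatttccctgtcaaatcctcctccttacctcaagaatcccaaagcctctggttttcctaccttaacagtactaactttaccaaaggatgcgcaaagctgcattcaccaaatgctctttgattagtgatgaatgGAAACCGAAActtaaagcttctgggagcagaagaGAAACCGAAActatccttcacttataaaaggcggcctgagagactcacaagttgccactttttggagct
Slfn5: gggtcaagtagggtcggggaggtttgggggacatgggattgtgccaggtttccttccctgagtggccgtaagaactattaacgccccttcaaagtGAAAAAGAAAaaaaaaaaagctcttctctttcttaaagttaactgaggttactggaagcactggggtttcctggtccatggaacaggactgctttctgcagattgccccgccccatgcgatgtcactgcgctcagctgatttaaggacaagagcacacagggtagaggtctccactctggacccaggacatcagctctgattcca
Slfn9: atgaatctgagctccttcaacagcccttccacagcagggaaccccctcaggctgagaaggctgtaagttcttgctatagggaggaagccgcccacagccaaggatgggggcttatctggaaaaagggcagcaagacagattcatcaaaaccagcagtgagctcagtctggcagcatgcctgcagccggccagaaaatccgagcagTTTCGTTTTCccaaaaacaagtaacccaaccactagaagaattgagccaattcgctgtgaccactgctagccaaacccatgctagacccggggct
Ifitm3: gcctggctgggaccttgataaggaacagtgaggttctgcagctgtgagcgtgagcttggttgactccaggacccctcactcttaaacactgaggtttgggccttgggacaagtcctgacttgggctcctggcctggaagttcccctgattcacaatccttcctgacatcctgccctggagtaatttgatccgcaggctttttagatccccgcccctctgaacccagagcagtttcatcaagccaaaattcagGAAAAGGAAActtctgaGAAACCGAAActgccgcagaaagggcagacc
Ifitm2: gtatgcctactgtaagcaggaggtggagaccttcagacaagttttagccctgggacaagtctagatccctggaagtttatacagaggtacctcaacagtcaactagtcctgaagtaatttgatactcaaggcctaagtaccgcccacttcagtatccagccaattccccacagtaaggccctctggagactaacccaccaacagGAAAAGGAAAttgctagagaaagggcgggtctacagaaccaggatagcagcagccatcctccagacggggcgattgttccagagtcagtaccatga

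**Figure D1:**
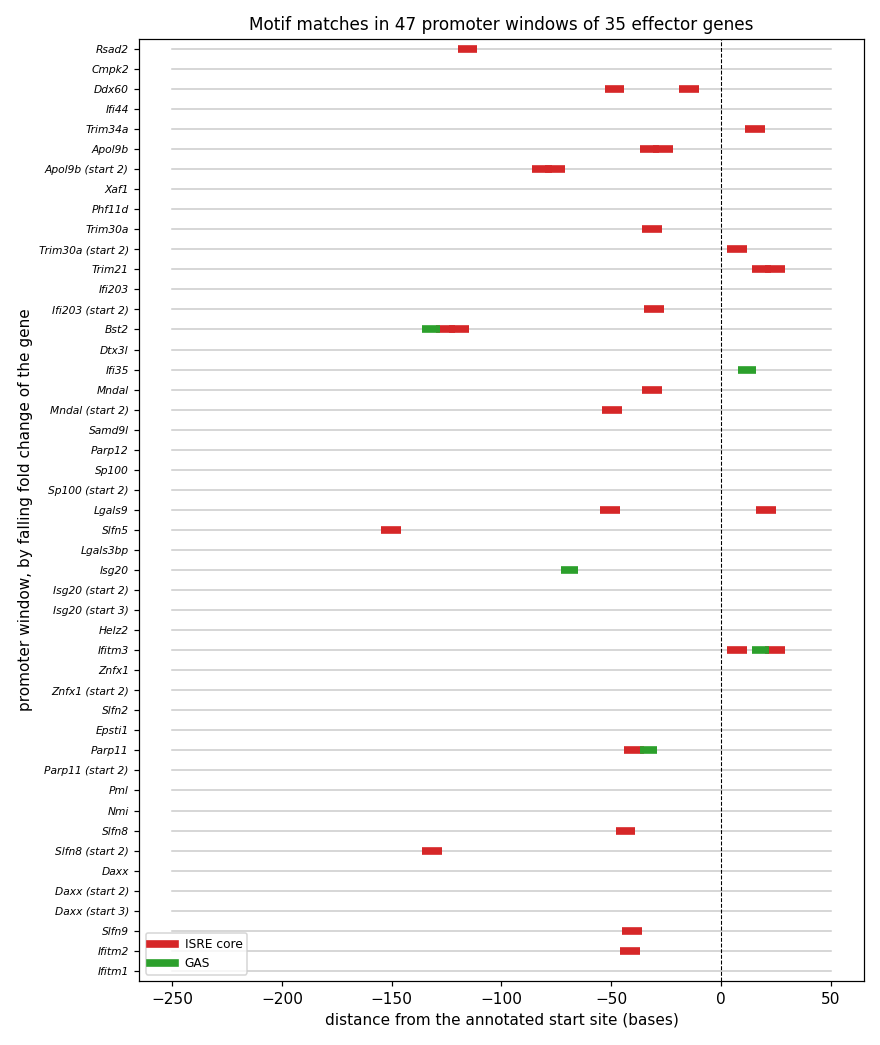
Matches to the ISRE core (red) and to GAS (green) in 47 promoter windows of 35 effector genes; the x axis is the distance in bases from the annotated start site (dashed line), and each row is a window, ordered by falling log2 fold change of the gene (Firre overexpression against negative control). Genes with and without a match are spread over the whole order, and Slfn9 and Ifitm2 near the bottom both have an ISRE match.

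With Firre overexpression most of the effector genes were higher than with the control vector. Of the 43 that passed the filter on low counts, 40 rose, none fell and 3 (Slfn9, Epsti1 and Ifitm2) did not pass the test, which was edgeR's quasi-likelihood test adjusted over all 15633 genes tested. The comparison as a whole was wide: 56% of all genes tested were called, 27.5% higher and 28.4% lower. The counts of the role groups below stand beside the same shares. Log2 fold changes of the 43 genes ran from -0.59 to 5.47 around a median of 1.68, and that of all genes was 0.00. Of the 43, 33 were called with at least a 2-fold rise, against 4.89% of all genes. Groups did not overlap in 42 of the 43, with 41 higher and Ifitm2 lower, where 62.4% of all genes had no overlap (30.8% higher and 31.5% lower). Mx1 and Epsti1 entered the test only through their counts in the Firre libraries; among the 41 genes that passed the filter in the 6 controls alone, 39 rose at the same median of 1.68. Ifitm1 was too low to be tested.

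**Figure D2:**
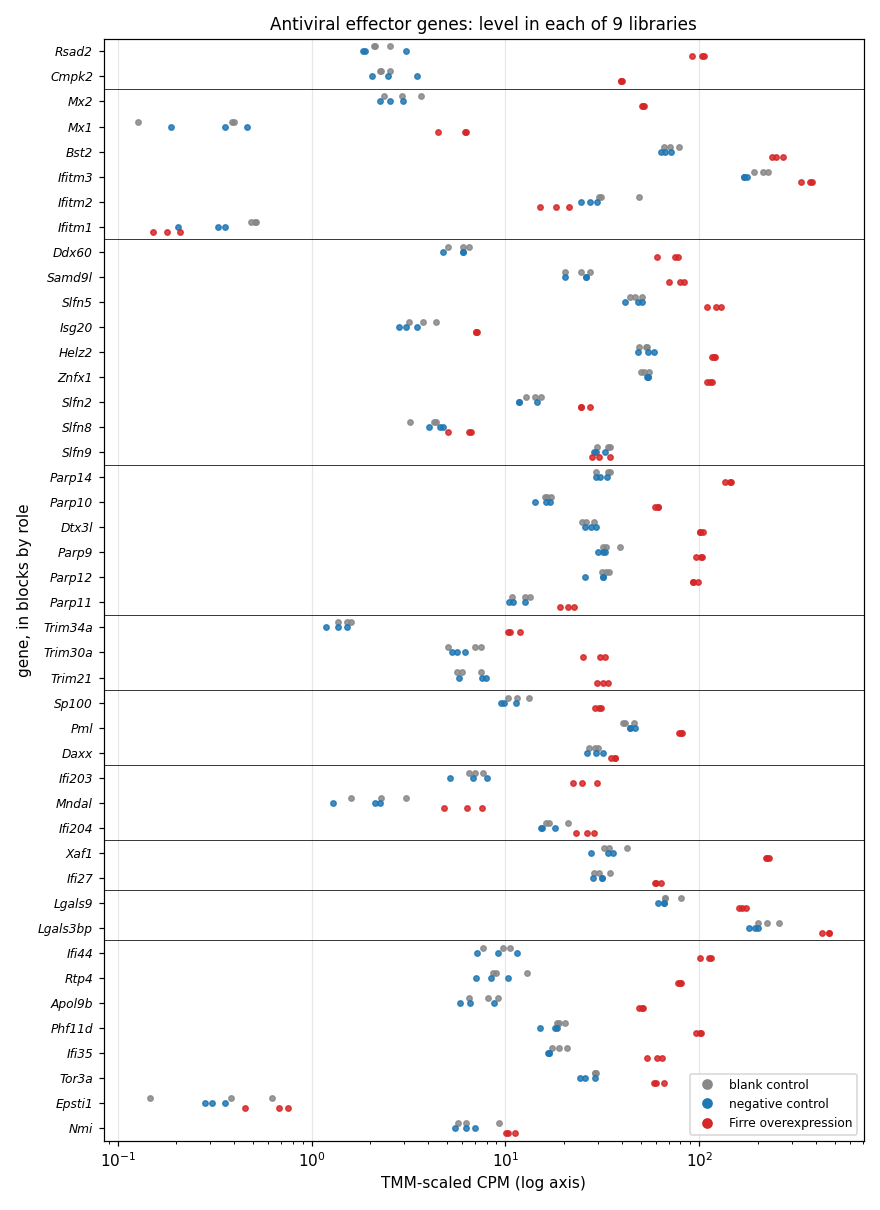
Level of each of the 44 effector genes in each library, as TMM-scaled CPM on a log axis (grey, blank control; blue, negative control; red, Firre overexpression; 3 points each); lines separate the role groups. The red points lie to the right of the blue points for 41 of the 43 tested genes, overlap for Slfn9 and lie to the left for Ifitm2.

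Summed over the 44 genes, the blank control had 1422, 1246 and 1267 CPM, the negative control 1234, 1207 and 1137 CPM and the Firre group 3523, 3502 and 3705 CPM. Spread between replicates was small beside that step. The median coefficient of variation over the 43 tested genes was 11.1% for the blank, 10.01% for the negative control and 6.46% for the Firre group.

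Viperin turns CTP into a chain-terminating nucleotide, and Cmpk2, a mitochondrial nucleotide kinase, is encoded beside it; in mm10 the pair lies head to head on chromosome 12 with 12751 bases between the genes (Rsad2 26442746 to 26456452, Cmpk2 26469204 to 26479837). Rsad2 had blank control levels of 2.55, 2.10 and 2.12 CPM, negative control levels of 3.08, 1.88 and 1.84 CPM and Firre levels of 103, 91.97 and 106 CPM. It was the third most strongly raised of all genes tested, at a log2 change of 5.47 ± 0.11 (SE, edgeR adjusted p = 9.83e-25). Cmpk2 had blank control levels of 2.55, 2.24 and 2.29 CPM, negative control levels of 3.495, 2.49 and 2.04 CPM and Firre levels of 39.5, 39.4 and 40.0 CPM, a log2 change of 3.89 ± 0.12 (SE, edgeR adjusted p = 1.21e-21). The pair stood at nearly the same level per length in the controls and apart with Firre. Per kilobase of exon, the level of Rsad2 over that of Cmpk2 was 0.960, 0.898 and 0.888 in the blank control and 0.847, 0.725 and 0.864 in the negative control, and 2.51, 2.24 and 2.54 with Firre. The mean log2 ratio differed by 1.58 between the Firre and negative control groups (exact two-sided permutation test, p = 0.1, the smallest that 3 against 3 allows). Such a difference closely restates the log2 changes of the 2 genes and is no separate support. The same holds for the gene pairs below. The Rsad2 window holds an ISRE match 111 to 120 bases before the start, and none was found in the Cmpk2 window.

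In the role group of membrane and of entry or release restriction, the Mx GTPases, dynamin-like proteins that trap viral nucleocapsids, were low in the controls. Mx2 had Firre levels of 52.03, 50.4 and 51.3 CPM, where the negative control gave 2.98, 2.54 and 2.25 CPM and the blank control 2.36, 3.66 and 2.92 CPM, a log2 change of 4.31 ± 0.11 (SE, edgeR adjusted p = 3.47e-23). Mx1 rested on 2 to 9 reads per control library and on 99 to 124 reads per Firre library, and passed the filter only through the latter. It had blank control levels of 0.128, 0.390 and 0.400 CPM and negative control levels of 0.463, 0.188 and 0.357 CPM. Its Firre levels were 6.28, 4.47 and 6.16 CPM. Its log2 change was 4.06 ± 0.31 (SE, edgeR adjusted p = 1.53e-12), a p-value that carries this limit of the filter. Of the 4 gene pairs compared by their ratio per kilobase, Mx2 over Mx1 did not separate: it was 6.75, 14.1 and 6.58 in the negative control and 8.68, 11.8 and 8.72 with Firre (difference of mean log2 ratios 0.17, exact two-sided permutation test, p = 0.6). That ratio rests on the same few Mx1 reads in the controls. Many laboratory mouse strains carry defective Mx genes, and the labels name no strain. The gene annotation lists Mx2 as a polymorphic pseudogene. Bst2, or tetherin, which holds budding virus particles on the cell surface, went from 67.2 ± 4.18 to 252 ± 16.6 CPM (SD, n = 3), a log2 change of 1.91 ± 0.06 (SE, edgeR adjusted p = 5.99e-20).

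The Ifitm proteins, which sit in cell and endosome membranes and hinder virus fusion, did not move together. Ifitm3 had negative control levels of 177, 171 and 170.3 CPM, blank control levels of 225, 192 and 213 CPM and Firre levels of 335, 371 and 381 CPM, a log2 change of 1.07 ± 0.06 (SE, edgeR adjusted p = 4.85e-16). Every Firre library was above every control library. Ifitm2 had negative control levels of 24.5, 27.4 and 29.8 CPM, blank control levels of 48.7, 31.01 and 30.5 CPM and Firre levels of 18.2, 15.1 and 21.3 CPM. Its Firre libraries were all below its control libraries, but the difference from the negative control, -0.59 ± 0.23 (SE, edgeR adjusted p = 0.0676), did not pass. Blank control replicate 1 stood apart for Ifitm2, and that library enters the shared estimate of spread: without it the same difference was -0.59 with an edgeR adjusted p of 2.12e-05, and over all alternatives that p ran from 2.12e-05 to 0.178. Against the blank control Ifitm2 fell by 1.01 (SE 0.23, edgeR adjusted p = 7.88e-03). Ifitm1 was at the edge of detection, with 8, 10 and 9 reads in the blank control, 7, 7 and 4 reads in the negative control and 3, 4 and 4 reads with Firre.

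The 3 genes lie near each other on chromosome 7 (140954837 to 141010770 in mm10) in the order Ifitm2, Ifitm1, Ifitm3, with Ifitm1 on the plus strand and the others on the minus strand. The level per kilobase of Ifitm3 over that of Ifitm2 was 6.97, 6.04 and 5.52 in the negative control and 17.8, 23.8 and 17.3 with Firre, with no overlap (difference of mean log2 ratios 1.66, exact two-sided permutation test, p = 0.1, the smallest possible). The Ifitm3 window holds ISRE matches 3 to 12 and 20 to 29 bases behind the start, and Ifitm2 has a match 37 to 46 bases before it. Ifitm genes are similar in sequence, and reads that align to several of them may be missing from the counts. Ifitm2 also shares 268 of its 655 exon bases on the same strand with another annotated gene, which had 0 CPM throughout. Reads there may have been set apart as ambiguous. The count of Ifitm2, its level per kilobase and the ratio above are therefore uncertain. With Firre, 9 of 10 endothelial markers and 10 of 10 fibroblast markers fell (medians -1.20 and -1.16), where 28.4% of all genes fell. The part of these shifts in the Ifitm2 values was not tested.

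**Figure D3:**
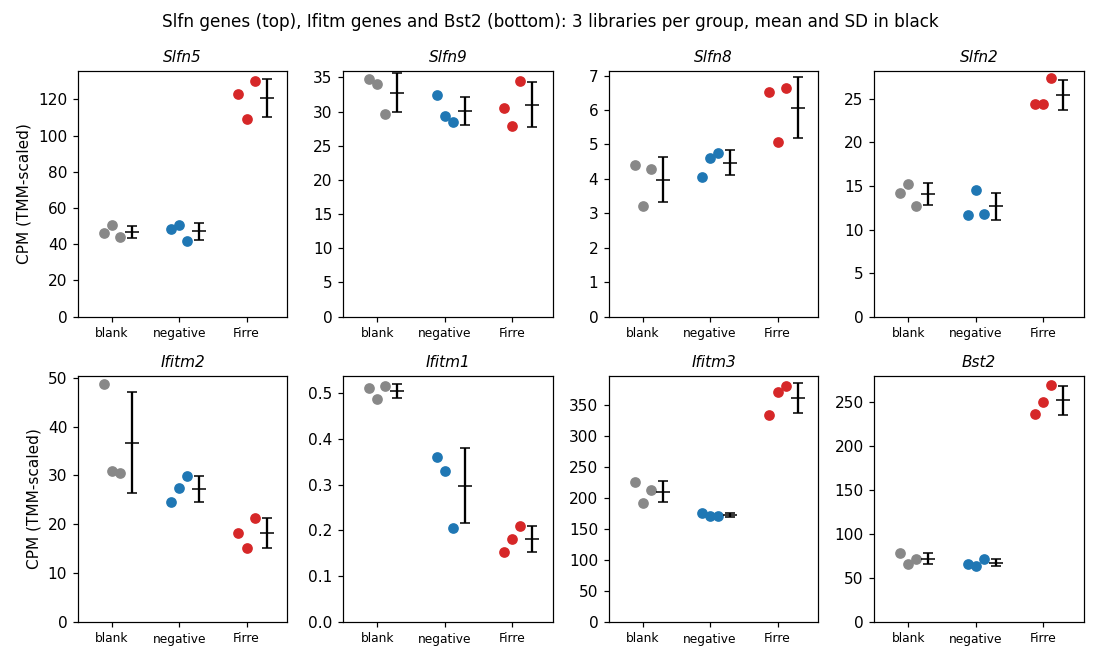
CPM of the Slfn genes (top row) and of the Ifitm genes and Bst2 (bottom row) in the blank control, negative control and Firre libraries; points are libraries, and black bars give the mean and SD of 3. Slfn5, Slfn2, Ifitm3 and Bst2 are higher with Firre, Slfn9 overlaps between groups, and Ifitm2 is lower; each panel has its own y axis from 0.

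Proteins that act on RNA, translation or nucleotides formed the largest role group, with 9 genes; 8 rose and Slfn9 did not pass, at a median of 1.14. Ddx60, a helicase-like protein linked to RNA sensing, rose the most: it had blank control levels of 6.51, 6.05 and 5.09 CPM, negative control levels of 6.01, 6.07 and 4.75 CPM and Firre levels of 75.3, 60.9 and 77.7 CPM, a log2 change of 3.66 ± 0.11 (SE, edgeR adjusted p = 3.96e-20). Samd9l, which restrains poxviruses and cell growth, rose by 1.68 and the RNA exonuclease gene Isg20 by 1.18. The helicases Helz2 and Znfx1, the latter an RNA sensor on mitochondria, were well expressed before and rose by 1.14 and 1.06, from 53.8 ± 5.17 to 119 ± 1.88 CPM and from 54.3 ± 0.300 to 113 ± 3.78 CPM (SD, n = 3). The edgeR adjusted p was highest for Isg20 among these 5, at 3.24e-07.

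The Schlafen genes, whose products act on tRNA, ribosomes and cell quiescence, sit side by side on chromosome 11 (82951349 to 83070678 in mm10) in the order Slfn5, Slfn9, Slfn8, Slfn2. Slfn5 rose by 1.36 ± 0.07 (SE, edgeR adjusted p = 4.70e-14), from 47.02 ± 4.79 to 121 ± 10.6 CPM, with means and SDs of 3 libraries. Slfn2 went from 12.7 ± 1.58 to 25.4 ± 1.72 CPM (SD, n = 3) and rose by 1.001 ± 0.10 (SE, edgeR adjusted p = 3.05e-10). Slfn9, which lies 13549 bases from Slfn5, had blank control levels of 34.8, 33.99 and 29.6 CPM, negative control levels of 32.5, 29.4 and 28.5 CPM and Firre levels of 30.6, 27.95 and 34.5 CPM. These groups overlapped, the log2 change was 0.04 ± 0.08 (SE, edgeR adjusted p = 0.702), and its 95% interval of -0.13 to 0.21 leaves out a rise of the size of Slfn5. Slfn8 had blank control levels of 4.41, 3.22 and 4.29 CPM, negative control levels of 4.06, 4.61 and 4.75 CPM and Firre levels of 6.53, 5.06 and 6.63 CPM, a small rise of 0.44 ± 0.16 (SE, edgeR adjusted p = 0.0247). The edgeR call of Slfn8 was lost without negative control replicate 1 (adjusted p = 0.0993), Firre replicate 1 (adjusted p = 0.0938) or Firre replicate 3 (adjusted p = 0.099). The level per kilobase of Slfn5 over that of Slfn9 was 1.41, 1.63 and 1.38 in the negative control and 3.79, 3.69 and 3.56 with Firre (difference of mean log2 ratios 1.32, exact two-sided permutation test, p = 0.1, the smallest possible). Both printed windows hold the ISRE core, 146 to 155 bases before the start in Slfn5 and 36 to 45 bases before it in Slfn9. These distances are from RefSeq starts. The Slfn5 window begins at 82951852, which lies inside the gene span given above, so its match is not in front of that span. Slfn8 and Slfn9 resemble each other, so reads that align to both may be missing from their counts. With Firre, 16 of 16 tested macrophage markers fell (median -4.20), where 28.4% of all genes fell. The part of that shift in the Schlafen values was not tested.

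All 6 genes of the ADP-ribosylation group rose, at a median of 1.78. Parp14, a large macrodomain PARP that modifies proteins with a lone ADP-ribose, had Firre levels of 144, 136 and 147 CPM, where the negative control gave 33.3, 30.7 and 29.5 CPM and the blank control 34.8, 33.9 and 29.5 CPM, a log2 change of 2.19 ± 0.07 (SE, edgeR adjusted p = 3.55e-22). Parp9 and the ubiquitin ligase gene Dtx3l, whose products form a complex, overlap head to head on chromosome 16 and moved by similar amounts, 1.68 ± 0.07 (SE, edgeR adjusted p = 4.73e-19) and 1.89 ± 0.07 (SE, edgeR adjusted p = 1.01e-20). Their exons share 458 bases on opposite strands, and reads there cannot be assigned without strand. Parp10 shares 205 exon bases with the abundant gene Plec, so part of its count is uncertain. Parp10 and Parp12 rose by 1.94 and 1.66, to 60.6 ± 1.25 and 94.9 ± 3.15 CPM (SD, n = 3). Parp11 moved the least in the group: it had blank control levels of 10.9, 12.6 and 13.4 CPM, negative control levels of 10.95, 12.6 and 10.46 CPM and Firre levels of 22.6, 19.2 and 21.2 CPM, a log2 change of 0.89 ± 0.10 (SE, edgeR adjusted p = 9.79e-09).

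The 3 TRIM genes, which encode ubiquitin ligases, also rose, from low levels. Trim34a had blank control levels of 1.53, 1.37 and 1.60 CPM, negative control levels of 1.18, 1.36 and 1.53 CPM and Firre levels of 10.53, 10.3 and 11.9 CPM, a log2 change of 3.00 ± 0.18 (SE, edgeR adjusted p = 3.09e-15). Trim21, the cytosolic antibody receptor, had blank control levels of 7.47, 5.95 and 5.66 CPM, negative control levels of 7.91, 7.57 and 5.77 CPM and Firre levels of 29.6, 33.8 and 32.01 CPM and rose by 2.17 ± 0.11 (SE, edgeR adjusted p = 1.59e-16). Trim30a, a regulator of inflammatory signalling, rose by 2.37 ± 0.12 (SE, edgeR adjusted p = 9.10e-16). Both Trim34a and Trim30a belong to a block of related genes on chromosome 7, so reads of close copies may have been lost.

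The 3 genes of PML nuclear bodies, the nuclear dots that silence incoming viral DNA, rose at a median of 0.84. Sp100 had blank control levels of 11.4, 13.2 and 10.3 CPM, negative control levels of 9.51, 11.4 and 9.85 CPM and Firre levels of 29.1, 30.97 and 30.4 CPM, a log2 change of 1.56 ± 0.10 (SE, edgeR adjusted p = 1.24e-14). Pml, the scaffold of the bodies, rose by 0.84 ± 0.06 (SE, edgeR adjusted p = 3.88e-13), from 44.9 ± 1.46 to 80.5 ± 1.24 CPM (SD, n = 3). Daxx, a histone chaperone in the same bodies, had negative control levels of 32.1, 29.2 and 26.2 CPM, blank control levels of 28.9, 27.1 and 30.2 CPM and Firre levels of 36.9, 35.1 and 36.8 CPM. The Daxx groups lay close together without overlap, and the rise of 0.31 ± 0.08 (SE, edgeR adjusted p = 7.64e-04) was the smallest of the 40.

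The PYHIN genes, whose products bind DNA, lie together on chromosome 1, where the exons of Ifi203 and Mndal overlap on the same strand. Ifi203 had blank control levels of 7.66, 6.49 and 6.97 CPM, negative control levels of 6.84, 8.05 and 5.15 CPM and Firre levels of 24.9, 22.4 and 29.7 CPM, a log2 change of 1.93 ± 0.13 (SE, edgeR adjusted p = 1.16e-12). Ifi204 had blank control levels of 20.9, 16.8 and 16.2 CPM, negative control levels of 15.4, 17.97 and 15.4 CPM and Firre levels of 23.2, 26.2 and 28.6 CPM and rose by 0.68 ± 0.10 (SE, edgeR adjusted p = 1.05e-06). Mndal, low throughout, rose by 1.72 ± 0.23 (SE, edgeR adjusted p = 2.74e-07) to 6.26 ± 1.37 CPM (SD, n = 3). Members of this family are near-identical in part, and their counts are uncertain. Macrophages express this family well, and their markers fell to 15.3 to 18.3 CPM in the Firre libraries; the part of that shift in these values was not tested.

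Xaf1, which antagonises the apoptosis inhibitor XIAP, had blank control levels of 42.5, 34.4 and 32.2 CPM, negative control levels of 35.8, 33.97 and 27.7 CPM and Firre levels of 228, 221 and 224 CPM, a log2 change of 2.79 ± 0.10 (SE, edgeR adjusted p = 3.08e-11). Ifi27, a mitochondrial protein linked to apoptosis, had blank control levels of 28.5, 30.4 and 34.8 CPM, negative control levels of 31.6, 31.7 and 28.2 CPM and Firre levels of 59.6, 63.6 and 59.3 CPM and rose by 0.996 ± 0.07 (SE, edgeR adjusted p = 3.82e-13). The secreted galectins and their partners were abundant before the step. Lgals9, galectin-9, had Firre levels of 166, 159.6 and 174 CPM, where the negative control gave 65.6, 61.2 and 66.03 CPM and the blank control 80.4, 66.6 and 66.8 CPM, a log2 change of 1.37 ± 0.06 (SE, edgeR adjusted p = 2.67e-17). Lgals3bp, the galectin-3 binding protein, had Firre levels of 431, 467 and 467 CPM, where the negative control gave 202, 193 and 182 CPM and the blank control 259, 201 and 223 CPM and rose by 1.24 ± 0.08 (SE, edgeR adjusted p = 2.45e-09).

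Of the other 8 induced genes 7 rose. Ifi44 had blank control levels of 10.53, 9.70 and 7.66 CPM, negative control levels of 9.15, 11.4 and 7.14 CPM and Firre levels of 112, 101 and 115 CPM, a log2 change of 3.55 ± 0.13 (SE, edgeR adjusted p = 4.73e-11). Rtp4, a receptor chaperone that also binds viral RNA, rose by 3.21, the apolipoprotein L gene Apol9b by 2.83, the PHD finger gene Phf11d by 2.53 and the torsin ATPase gene Tor3a by 1.21 (SE 0.12, 0.11, 0.07 and 0.07). Of the binding partners Ifi35 and Nmi, Ifi35 rose by 1.83 ± 0.08 (SE, edgeR adjusted p = 2.24e-18). Nmi moved less: it had blank control levels of 6.26, 5.71 and 9.32 CPM, negative control levels of 6.94, 6.30 and 5.51 CPM and Firre levels of 10.1, 11.2 and 10.3 CPM, a log2 change of 0.75 ± 0.15 (SE, edgeR adjusted p = 6.67e-05). Epsti1 was too low to judge. Its blank control levels of 0.383, 0.146 and 0.629 CPM, negative control levels of 0.308, 0.282 and 0.357 CPM and Firre levels of 0.759, 0.452 and 0.679 CPM came from 3 to 15 reads a library, and the log2 change of 0.97 ± 0.50 (SE, edgeR adjusted p = 0.101) had a 95% interval of -0.06 to 2.002. Apol9b has a close copy, and reads that align to both may be missing from its counts.

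**Figure D4:**
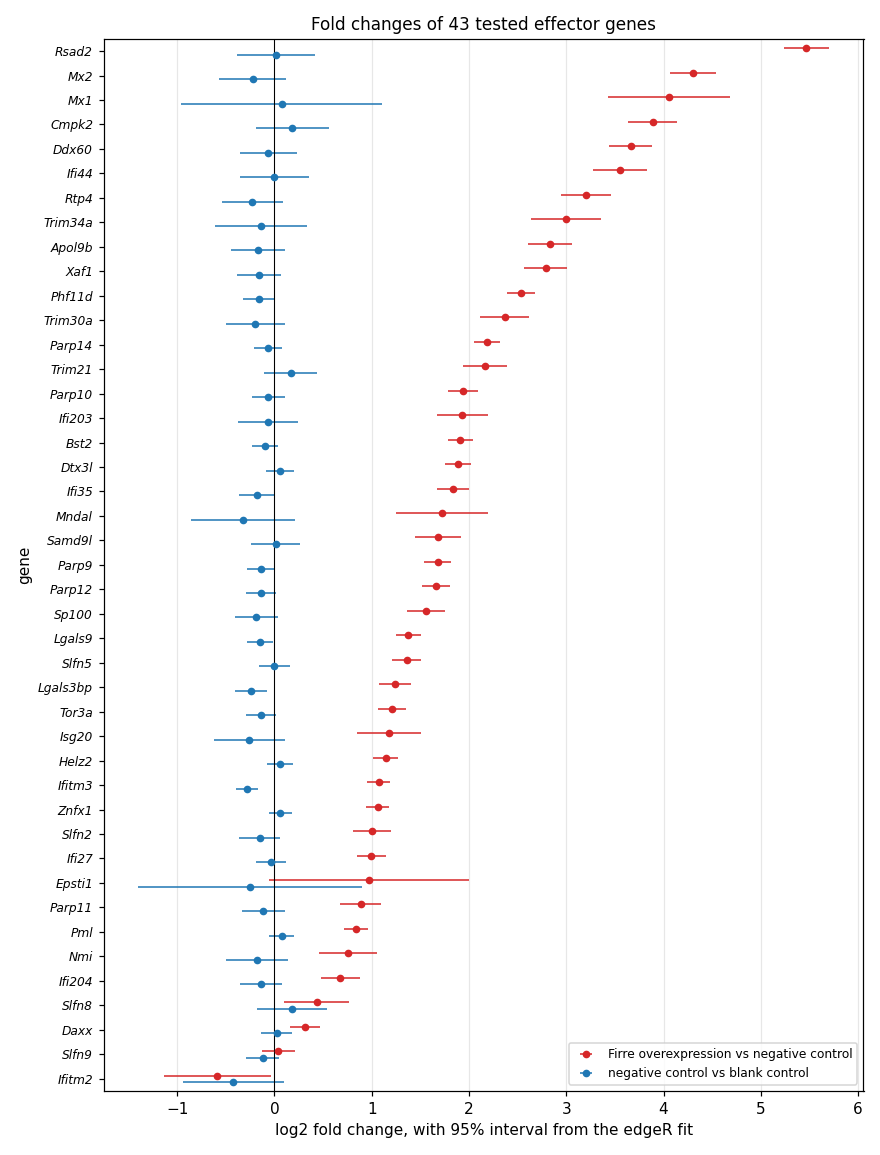
Log2 fold change with its 95% interval from the edgeR fit for 43 tested genes, ordered by the Firre comparison (red, Firre overexpression against negative control; blue, negative control against blank control). Red values run from -0.59 (Ifitm2) to 5.47 (Rsad2), while blue values stay between -0.42 and 0.18.

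The control vector against the blank control asks what the vector and its delivery did without Firre. Only Ifitm3 was called among the 43 genes, lower with the vector, where edgeR called 9 of all genes (0.0576%), 8 of them lower (0.0512%) and 1 higher (0.0064%); at an unadjusted p under 0.05 the counts were 4 of 43 and 1331 of all 15633. Ifitm3 had 210.2 ± 16.9 CPM in the blank and 173 ± 3.34 CPM in the negative control (SD, n = 3), without overlap, a log2 change of -0.28 ± 0.06 (SE, edgeR adjusted p = 0.0423). The call was near the threshold: over the alternatives the adjusted p ran from 9.77e-05 to 0.288, and without blank control replicate 1 the edgeR value was -0.23 (adjusted p = 0.288). The other 42 genes had values between -0.42 and 0.18, with a lowest edgeR adjusted p of 0.394. Groups did not overlap in 4 of the 43, all lower with the vector (Ifitm3, Ifitm2, Ifi35 and Lgals9), where 13.1% of all genes had no overlap (6.87% lower and 6.21% higher).

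Values were below 0 in 31 of the 43 genes (72.1%), against 51.6% of all genes, at a median of -0.13. Blank control replicate 1 was the highest of its group in 28 of the 43 (65.1%, against 32.6% of all genes), and without that library the median was -0.05. Negative control replicate 3 was the lowest of its group in 29 of the 43 (67.4%, against 31.2% of all genes), and without it the median was -0.08. Firre replicate 2 was likewise the lowest of its group in 29 of the 43, against 33.2% of all genes. Macrophage markers summed to 132 to 149 CPM in the blank and to 104 to 115 CPM in the negative control, and their part in the small differences between the controls was not tested.

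Against the blank control, 40 of the 43 genes rose with Firre, Ifitm2 fell, and Slfn9 and Epsti1 did not pass, where 56.3% of all genes were called (27.3% higher and 28.9% lower). Values ran from -1.01 to 5.48 around a median of 1.53, and 30 genes were called with at least a 2-fold rise (4.93% of all genes). Groups did not overlap in 41 of the 43, where 60.5% of all genes had no overlap. Both comparisons share the Firre libraries, so they are not independent. Set side by side, Rsad2 had 5.48 against the blank and 5.47 against the negative control, Mx2 had 4.08 and 4.31, Xaf1 2.63 and 2.79, Ifitm3 0.79 and 1.07, and Daxx 0.34 and 0.31.

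Levels before the step differed widely between the effector genes. Per kilobase of exon, Ifitm3 was highest in the blank control at 310.0 ± 24.9 CPM per kb, followed by Lgals3bp and Bst2 at 79.9 ± 10.47 and 79.6 ± 6.93, which did not differ beyond their spread (SD, n = 3). Mx1 was lowest of the tested genes, at 0.0808 ± 0.0408, below Epsti1 at 0.166 ± 0.104, within the spread of the latter. With Firre, Ifitm3 still led at 535 ± 35.7, followed by Bst2 at 279 ± 18.3 and Lgals3bp at 159.8 ± 7.28, now without overlap of their SDs, while Rsad2 went from 0.520 ± 0.0597 in the blank control to 23.1 ± 1.69. The level in the blank control was set against the log2 fold change between the Firre and negative control groups. Mx1 and Epsti1, low genes that passed the filter only through their Firre counts, can shape such a relation, and Ifitm1 was filtered out. Over the 41 genes that passed in the 6 controls alone, a choice made after seeing the data, Spearman's rho was -0.52 and Pearson's r was -0.52 on the log2 scale. Over all 43 they were -0.48 and -0.51, and over 15620 genes tested rho was -0.03. The blank control libraries do not enter that fold change, but genes are not independent replicates and share the libraries.

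**Figure D5:**
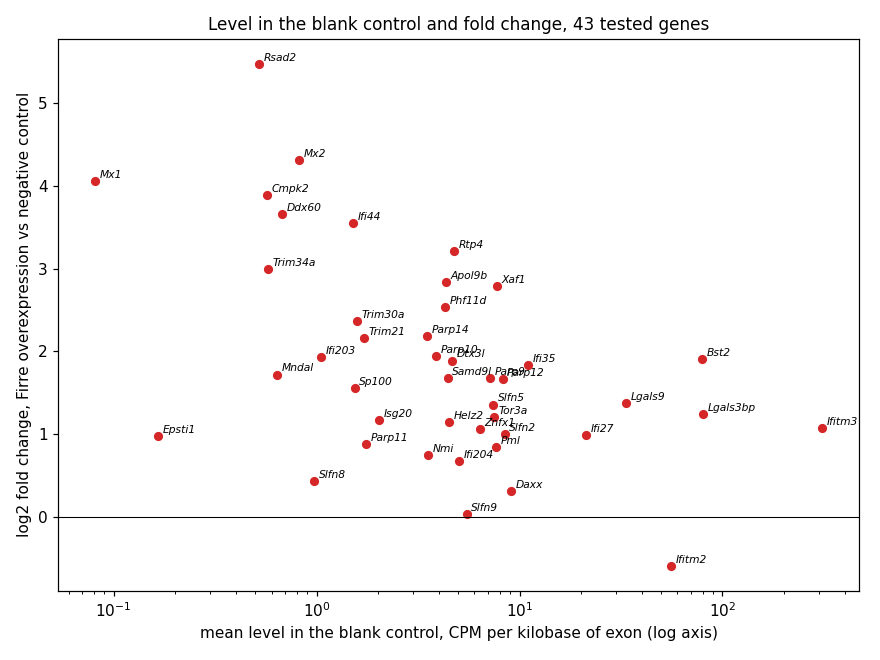
Mean level in the blank control (x axis, CPM per kilobase of exon, log axis) against the log2 fold change between Firre overexpression and negative control (y axis) for 43 tested genes. The 9 genes under 1 CPM per kilobase run from 0.44 (Slfn8) to 5.47 (Rsad2), with Mx1 and Epsti1 among them only through their Firre counts, and Ifitm3, the most abundant, has 1.07.

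Genes with and without an ISRE match in the promoter window overlapped in the size of their change. With a match, 16 tested genes ran from -0.59 (Ifitm2) to 5.47 (Rsad2) around a median log2 change of 1.81. Without one, 18 ran from 0.31 (Daxx) to 3.89 (Cmpk2) around 1.40. These are descriptions without a test. Windows without an exact match can hold close variants of the core: those of Phf11d, Xaf1 and Helz2, for example, hold GAAACGAAA.

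Elsewhere in the interferon pathway, the 21 interferon genes searched were close to absent: together they had 21 reads over the 9 libraries, at most 0.354 CPM in sum in a Firre library and 0.172 CPM in sum in a control, with 17 genes at 0 in every library, and none passed the filter. Of 14 genes for receptors, JAK kinases and transcription factors, 8 rose and 5 fell with Firre against the negative control (median 0.33), where 27.5% of all genes rose and 28.4% fell. The factor genes Irf7 and Stat2 had the smallest p and rose by 2.36 and 1.93 (edgeR adjusted p = 8.32e-26 and 7.23e-22). Among 5 genes that restrain the signal 2 rose and 1 fell, a share called near the 56% of all genes: Usp18, which removes ISG15 and blocks the receptor, rose by 3.73 and Socs1, which binds JAK kinases, by 1.11. All 31 genes of the IFIT, OAS, GBP and related families rose, by 1.05 to 5.39 around a median of 2.87, beside 40 of 43 with a median of 1.68 for the effector genes; the 2 lists were not tested against each other. Against the blank control the negative control had 1 of the 14 signalling genes lower (Irf7, -0.31) and none of the 31 family genes called.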

How the data were processed

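Per the labels' protocols, total RNA was taken with TRIzol, rRNA was removed, and stranded libraries were read in pairs of 150 bases; the labels also give the molecule as polyA RNA. FastQC, Trimmomatic, STAR, featureCounts and build mm10 are named in the submitters' processing notes, without versions or the strand setting; the deposited table closes with lines in the style of HTSeq, so the counting program is not settled. Those lines set ambiguous reads and reads aligned to several places apart from the genes. The authors deposited raw counts per Ensembl gene. Lines that name no gene held 16.3% to 17.4% of the table per library and were left out.

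Identifiers (55227 of 55487) were matched to GENCODE M21. edgeR 4.0.16 in R 4.3.3 fitted all 9 libraries with TMM scaling, filterByExpr (minimum count 10, total 15), no covariates and 6 residual degrees of freedom; glmQLFTest p-values were Benjamini-Hochberg adjusted over 15633 genes at 0.05. The SE is the log2 fold change over the root of F. Levels are CPM, per kilobase of GENCODE exon where genes are compared. DESeq2 1.42.0 was an alternative. The script was tested on simulated counts in which only a small share of genes changed. That test does not cover a change as wide as the one with Firre.

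Replicates of a group differed beyond sampling noise (chi-square per degree of freedom 3.37 to 7.94). Genes, lists and the naming rule (all 44 genes, with every library's values for the extremes of each role group, the Ifitm genes and calls between the controls) were chosen with earlier results of these data known. Slfn5, Slfn2, Slfn8, Bst2, Mx1 and Epsti1 were given more values after these were seen. C1qa, the only macrophage marker at 0 in all Firre libraries, was also named after its values were seen. The labels name no batch, so batch and group cannot be told apart.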

Additional observations from a re-analysis of the deposited data

How the results depend on the processing

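Of the 43 effector genes, 40 kept their direction and their side of the threshold for Firre against the negative control under the 16 alternatives run, or under those in which they were tested, and all 43 did so against the blank control. The exceptions were Ifitm2, Slfn8 and Slfn9. Ifitm2 passed as lower with library totals (-0.64), with DESeq2 (-0.58), with only the 2 groups compared (-0.59) and without blank control replicate 1. Slfn8 was lost with DESeq2 (adjusted p = 0.074) and without 3 of the libraries. Slfn9, not called, changed sign with library totals (-0.015) and ranged from -0.04 to 0.12 when a library was left out; the causes were not tested. The count of effector genes called was 39 to 41 for Firre against the negative control and 41 to 42 against the blank control, and 39 to 41 and 41 to 42 when a library was left out. With library totals 3685 of all genes were higher and 5050 lower (4306 and 4441 in the main fit), and the median of all genes was -0.05.

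Between the controls few genes were called, and the counts moved. DESeq2 gave an adjusted p to only 1959 genes here, 3 of them effector genes, against 15633 and 43 in the main fit. Over all genes the 9 became 43 of those 1959 with DESeq2 and 98 of 28225 with no low-count filter. When a library was left out, the count was 0 (without blank control replicate 1) to 55 (without blank control replicate 2). Among the effector genes the 1 (Ifitm3) became 2 of those 3 with DESeq2 and 2 of 44 with no filter (Ifitm3 and Lgals3bp). The count was 0 with DESeq2 size factors, library totals, a mean of at least 1 CPM, or only the 2 groups compared. It was 0 to 2 when a library was left out, and the cause was not tested. Under library totals Ifitm3 had an adjusted p of 0.0502.

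Replicate numbers are shared between groups, but 0 of the 9 same-numbered pairs had a correlation of deviations over 0.1 (-0.07 to 0.06), and 4 of 18 library comparisons were best with the own number. With the replicate block the effector genes called were 40 for Firre against the negative control, 41 against the blank control and 0 between the controls, and all genes called were 8592, 8586 and 7.

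Depth limits Ifitm1, Epsti1 and Mx1, which had 2 to 11 reads in the control libraries.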
